A study of Mus musculus with 20 samples.

Results

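A set of 35 genes of glycolysis and of the response to low oxygen was followed through 20 RNA-seq libraries of mouse mammary organoids and mammary tumors. They were listed by name, with no threshold on a measured value, and all 35 were found by 1 Ensembl ID each among the 45318 gene IDs of the count tables. They hold 3 transporters (Slc2a1, Slc2a3, Slc16a3), 14 enzymes of the glycolytic chain, 3 switches of its flux (Pfkfb3, Pfkfb4, Pdk1), 3 genes of oxygen sensing (Hif1a, Egln1, Egln3) and 12 other genes known to be raised by hypoxia. All 35 passed the filter on low counts and entered every test.

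All mice were of strain FVB. Organoids, which are tissue fragments freed from the gland or tumor, were grown in matrigel with FGF2 for 6 days. That protocol names MMTV-PyMT tumors only, although it stands with every sample. The 6 day organoids came from MMTV-Neu-NDL tumors (3 libraries), from MMTV-PyMT tumors (3 libraries titled day 6 and 2 whose titles give no day, called undated here) and, as the normal group, from wild type glands (WT, 3 libraries). Other MMTV-PyMT organoids (3 libraries) gave RNA at day 0, straight after preparation and before culture. Tumor sections, 30 µm thick and frozen, came from MMTV-Cre;Flox-Neo-Neu-NT mice (Neu-NT, 3 libraries) and from MMTV-PyMT mice (3 libraries). MMTV is a viral promoter active in mammary epithelium; PyMT is the polyoma middle T antigen, Neu-NDL and Neu-NT are activated forms of the rat Neu (ErbB2) receptor, and Neu-NT is switched on here by MMTV-driven Cre recombinase. The Neu organoids and Neu sections are therefore of different genotypes, so genotype and culture cannot be told apart between them. No normal tissue section was analysed here, and the labels do not say that replicates came from separate animals, so p-values measure only the spread between these samples, which may be technical.

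Glycolysis splits glucose to pyruvate in the cytosol. When oxygen is short, pyruvate is mostly reduced to lactate and exported, and less of it enters the mitochondria. The transcription factor subunit Hif1a is marked for destruction by the prolyl hydroxylases Egln1 and Egln3 when oxygen is present. In hypoxia it persists, pairs with Arnt, and binds hypoxia response elements with the core ACGTG or GCGTG near its target genes, which include most glycolytic genes as well as Egln3 itself. Hif1a is controlled mainly as a protein, which was not measured here. Many tumors run glycolysis at a high rate even with oxygen present.

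Promoter windows of RefSeq (GRCm38.p6), 250 bases before an annotated start, were on hand for 32 of the 35 genes. The core ACGTG, searched on both strands, was present in at least 1 window of 19 of these 32 genes (59.4%), against 18.5% of all 27025 genes with a window. GCGTG on either strand was present for 21 genes (65.6%), against 30.9% of all genes, and either core for 30 genes (93.8%), against 41.5%. A gene with more windows has more chances to match. Counted by window, ACGTG was in 47.8% of the 46 windows of these genes, against 16.6% of all 32851 windows. Either core was in 80.4%, against 38.6%. Many of the 35 were listed as genes known to be raised by hypoxia, so these shares are no test. CACGTG reads as ACGTG on both strands and counts once on each, and neighboring matches may share bases. A match describes these letters and is no evidence of a bound factor. The windows shown belong to the 4 genes with the largest rise in cultured PyMT organoids over PyMT sections, and to Ldha, whose window holds the most ACGTG matches of any member but which did not pass that test. Matches on either strand are in capitals, so that a minus strand match reads CACGT or CACGC.

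Slc16a3 (chr11:120948817-120949066, plus strand): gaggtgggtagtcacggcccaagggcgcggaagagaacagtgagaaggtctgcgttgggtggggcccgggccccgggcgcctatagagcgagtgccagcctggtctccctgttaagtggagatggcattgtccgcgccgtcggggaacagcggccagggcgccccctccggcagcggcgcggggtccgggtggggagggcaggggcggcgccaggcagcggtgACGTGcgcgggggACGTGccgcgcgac
Bnip3 (chr7:138909507-138909756, minus strand): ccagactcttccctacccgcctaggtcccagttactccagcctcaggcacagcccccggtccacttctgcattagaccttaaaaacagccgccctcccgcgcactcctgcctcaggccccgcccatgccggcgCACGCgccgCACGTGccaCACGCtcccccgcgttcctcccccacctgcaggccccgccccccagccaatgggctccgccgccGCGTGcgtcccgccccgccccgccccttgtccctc
Egln3 (chr12:54203875-54204124, minus strand): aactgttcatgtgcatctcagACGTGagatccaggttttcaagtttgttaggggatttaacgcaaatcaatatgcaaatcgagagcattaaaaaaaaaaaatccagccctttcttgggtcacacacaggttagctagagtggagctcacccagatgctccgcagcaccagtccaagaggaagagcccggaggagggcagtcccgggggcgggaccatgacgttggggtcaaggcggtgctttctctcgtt
Adm (chr7:110627407-110627656, plus strand): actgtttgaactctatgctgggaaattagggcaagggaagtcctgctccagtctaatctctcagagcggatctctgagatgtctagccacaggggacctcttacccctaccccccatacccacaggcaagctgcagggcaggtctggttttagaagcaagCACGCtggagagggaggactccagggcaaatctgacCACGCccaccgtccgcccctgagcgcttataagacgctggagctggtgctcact
Ldha (chr7:46845554-46845803, plus strand): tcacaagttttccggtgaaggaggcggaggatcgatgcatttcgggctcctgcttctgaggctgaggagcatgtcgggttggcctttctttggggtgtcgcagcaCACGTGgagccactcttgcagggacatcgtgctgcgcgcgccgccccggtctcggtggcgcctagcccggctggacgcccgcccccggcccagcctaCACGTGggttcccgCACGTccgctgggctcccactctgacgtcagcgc
The Bnip3 window holds 2 ACGTG and 3 GCGTG matches, Slc16a3 holds 2 ACGTG matches, Egln3 holds 1 ACGTG match, Adm holds 2 GCGTG matches, and Ldha holds 5 ACGTG matches.

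The libraries held 17478357 to 48341438 reads counted on genes, and the 35 genes took 0.816 to 3.43% of them. The luminal epithelial marker list (10 genes) summed to 4355 to 10861 CPM (counts scaled to library size with the TMM method) over the 20 libraries, so each held epithelial RNA. A pair of libraries stood apart within their groups. PyMT organoid day 6 replicate 3 was below the other 4 PyMT libraries of 6 days in 30 of the 35 genes and above them in 2 (Aldoa and Ldha). Its marker sums were 118 CPM for erythroid cells (0.302 to 0.705 CPM in the other 4), 219 CPM for endothelium (6.11 to 8.51), 3527 CPM for fibroblasts (91.7 to 653) and 97.0 CPM for basal cells (1156 to 6447). All 4 sums of this library lay within the ranges of the PyMT sections (81.3 to 146, 141 to 230, 2998 to 6984 and 86.9 to 315 CPM). Its luminal sum of 10102 CPM lay above the sections (4355 to 8065 CPM). Its macrophage sum of 735 CPM lay below them (758 to 1124 CPM). The neutrophil, lymphocyte, adipocyte and skeletal muscle sums lay within the section ranges. Neu-NT section replicate 3 was below replicates 1 and 2 in 26 genes and above them in 6, with a basal marker sum of 1843 CPM (138 and 74.6 CPM in replicates 1 and 2). For both libraries these positions were counted in the 35 genes only, not over all genes. The part of these differences in cell content in the results was not tested. Whether these 2 libraries carry the right labels is in doubt and could not be settled here. They were used as labelled, and results that turn on either library are given with and without it. They were singled out in part for low values of these 35 genes, so calls gained without them are no independent support.

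**Figure D1:**
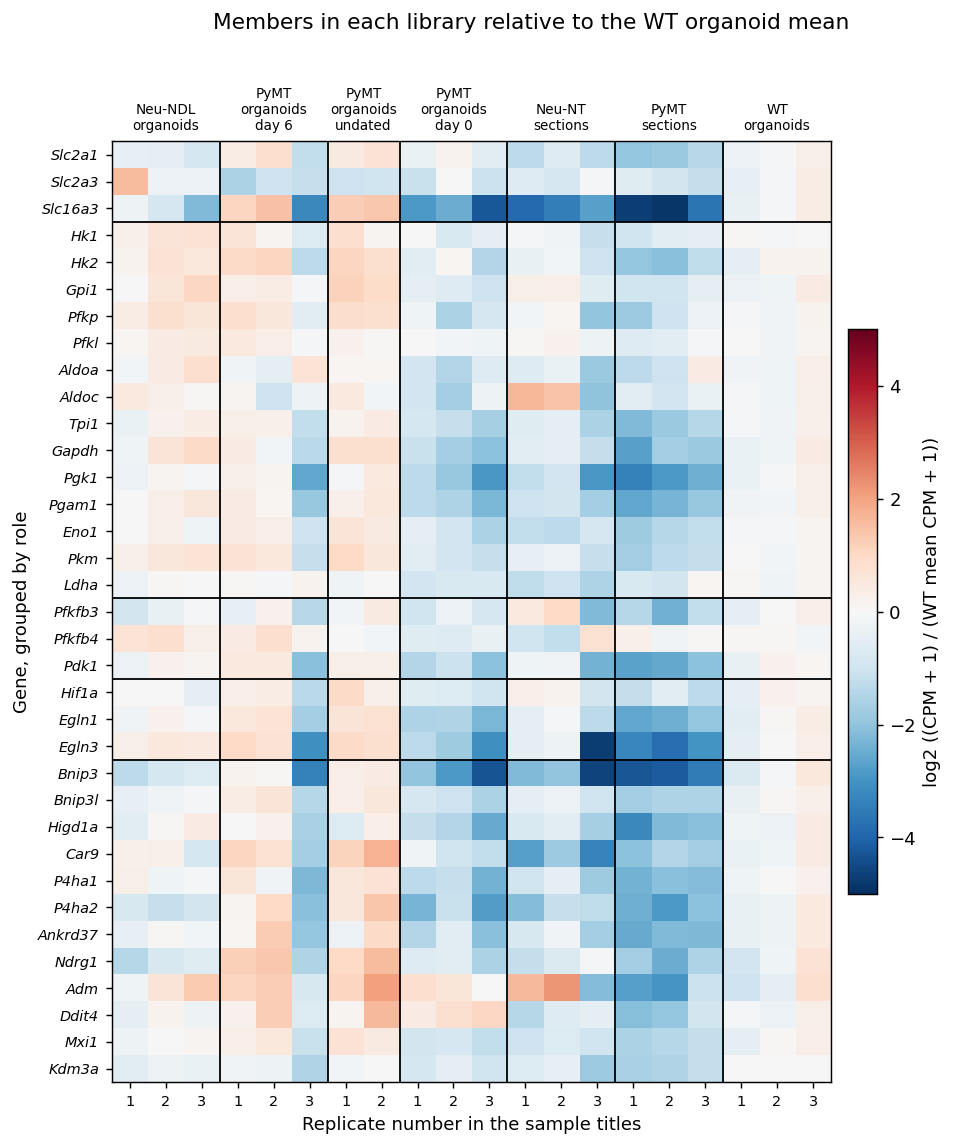
Levels of the 35 genes in each of the 20 libraries, as log2 of CPM + 1 over the mean of the 3 WT organoid libraries + 1. Rows are genes grouped by role (transporters, enzymes, switches of flux, oxygen sensing, hypoxia targets), columns are replicates within groups; the PyMT sections are below the WT mean in nearly every row, and PyMT day 6 replicate 3 is below the other 4 PyMT libraries of 6 days in 30 rows.

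The genes differed widely in how far they ranged over the 20 libraries. Of the transporters and switches, levels ranged for Slc2a1 over 84.3 to 586, Slc2a3 over 0.326 to 11.0, Slc16a3 over 3.57 to 371, Pfkfb3 over 23.2 to 249 and Pfkfb4 over 1.58 to 9.76 CPM. Of the enzymes, they ranged for Hk1 over 241 to 957, Hk2 over 21.8 to 206, Pfkp over 103 to 758, Pfkl over 499.6 to 1098 and Aldoa over 908 to 5783 CPM, and for Aldoc over 195 to 2454, Pgk1 over 154 to 2304, Pgam1 over 49.4 to 452, Eno1 over 503 to 2726 and Ldha over 1103 to 3551 CPM. The oxygen sensing genes ranged for Hif1a over 65.4 to 331, Egln1 over 28.3 to 298 and Egln3 over 41.9 to 2285 CPM. Of the hypoxia targets, levels ranged for Bnip3 over 13.9 to 530.4, Bnip3l over 84.2 to 444, Car9 over 7.25 to 273 and P4ha1 over 30.8 to 272 CPM, and for P4ha2 over 10.5 to 223, Ndrg1 over 73.1 to 1216, Adm over 2.96 to 140.1 and Ddit4 over 81.0 to 1112 CPM. Slc16a3 and Egln3 spanned the widest ranges relative to their lowest library, and Pfkl the narrowest.

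Cultured PyMT organoids carried far more mRNA of these genes than the frozen tumor sections of the same genotype. Of the 35 genes, 29 were higher in the 6 day PyMT organoids (day 6 and undated sets averaged) than in PyMT sections and none was lower, at an edgeR adjusted p under 0.05. Over all 18698 genes tested, 16% were called in either direction, 7.69% higher and 8.3% lower. The median log2 fold change of the 35 was 2.12, against -0.06 for all genes. All 12 hypoxia targets, all 3 oxygen sensing genes, 11 of 14 enzymes, 2 of 3 transporters and 1 of 3 switches were called.

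Slc16a3, the transporter that exports lactate from glycolytic cells (ENSMUSG00000025161, chr11:120948480-120960868 on mm10), changed most. It stood at 284, 371, 13.3, 311 and 343 CPM in the 6 day PyMT organoids (day 6 replicates 1 to 3, then undated replicates 1 and 2), against 4.16, 3.57 and 9.62 CPM in PyMT sections (log2 fold change 5.54 ± 0.93 (SE), adjusted p = 0.0109). The groups did not overlap, and day 6 replicate 3 lay nearest to the sections. Slc2a1, the main glucose importer of most epithelia, was at 415, 586, 139, 442 and 541 CPM in these organoids, against 84.3, 89.3 and 124 CPM in sections (log2 fold change 2.12 ± 0.37 (SE), adjusted p = 0.0109). Slc2a3, a high affinity glucose importer best known from neurons, was scarce throughout, at 0.326, 0.956, 0.815, 0.973 and 1.03 CPM in organoids, against 1.66, 1.11 and 0.752 CPM in sections, with no call (log2 fold change -0.48, adjusted p = 0.596). So of the transporters the abundant pair were higher in every organoid library than in any section.

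Among oxygen sensing genes, Egln3 (ENSMUSG00000035105, chr12:54178981-54203860) reached 2285, 1940.4, 136, 2233 and 1996 CPM in the 6 day PyMT organoids, against 119, 81.0 and 144 CPM in PyMT sections (log2 fold change 3.93 ± 0.93 (SE), adjusted p = 0.0185). Of the 5 organoid libraries, 4 were more than 10 times above every section, and day 6 replicate 3 lay among the sections. Egln1 was at 255, 283, 54.1, 274 and 298 CPM, against 28.3, 31.9 and 45.9 CPM (log2 fold change 2.75 ± 0.46 (SE), adjusted p = 0.0109), with no overlap. Hif1a mRNA was at 213, 219, 65.4, 331 and 211 CPM, against 74.8, 116 and 67.2 CPM (log2 fold change 1.30 ± 0.38 (SE), adjusted p = 0.033), and overlapped through day 6 replicate 3 alone.

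The hypoxia targets were led by Bnip3, a mitochondrial protein that promotes mitophagy (ENSMUSG00000078566, chr7:138890836-138909519). It was at 419, 380.1, 34.3, 465 and 489 CPM in 6 day PyMT organoids, against 17.9, 19.9 and 32.1 CPM in PyMT sections (log2 fold change 3.96 ± 0.82 (SE), adjusted p = 0.0134). Its relative Bnip3l was at 375, 444, 106, 365 and 427 CPM, against 84.2, 99.0 and 99.1 CPM (log2 fold change 1.89 ± 0.35 (SE), adjusted p = 0.0118). Neither gene's groups overlapped, and the difference was smaller for Bnip3l, without a test between the genes. Adm, which encodes the vasodilator peptide adrenomedullin (ENSMUSG00000030790, chr7:110627661-110629820), was at 63.4, 70.8, 16.5, 64.5 and 128 CPM, against 3.63, 2.96 and 13.7 CPM (log2 fold change 3.36 ± 0.90 (SE), adjusted p = 0.0263). Ndrg1, a stress-responsive gene first described in differentiating cells, was at 924, 1041, 144, 808 and 1216 CPM, against 121, 73.1 and 139 CPM (log2 fold change 2.92 ± 0.59 (SE), adjusted p = 0.0131). The lowest organoid value of both genes, in day 6 replicate 3, was just above the highest section.

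The collagen prolyl 4-hydroxylase subunit genes P4ha1 and P4ha2 rose as well. P4ha1 was at 249, 145, 33.4, 243 and 272 CPM in 6 day PyMT organoids, against 30.8, 37.2 and 35.2 CPM in sections (log2 fold change 2.48 ± 0.50 (SE), adjusted p = 0.0131). P4ha2 was at 91.6, 169.9, 19.1, 126 and 223 CPM, against 14.5, 10.5 and 19.8 CPM (log2 fold change 3.09 ± 0.60 (SE), adjusted p = 0.0123). Both overlapped the sections only through day 6 replicate 3. Car9, the cell surface carbonic anhydrase that buffers acid from glycolysis, was at 176, 139, 24.9, 179 and 273 CPM, against 18.9, 28.8 and 24.0 CPM (log2 fold change 2.74 ± 0.56 (SE), adjusted p = 0.0134). Ddit4, an inhibitor of mTORC1 induced by stress, was at 418, 833, 225, 388 and 1112 CPM, against 81.0, 93.3 and 187 CPM (log2 fold change 2.33 ± 0.46 (SE), adjusted p = 0.0127). The remaining called targets were Ankrd37, an ankyrin repeat gene (log2 fold change 3.21, adjusted p = 0.0154), the respiratory chain factor Higd1a (2.29, adjusted p = 0.014), the Myc antagonist Mxi1 (1.76, adjusted p = 0.0109) and the histone demethylase Kdm3a (1.14, adjusted p = 0.027). Over the 20 libraries, Ankrd37 ranged over 1.63 to 34.8 CPM, Higd1a over 16.8 to 219 CPM, Mxi1 over 31.6 to 159 CPM and Kdm3a over 67.1 to 246 CPM.

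The glycolytic chain moved less evenly. Pgk1, which makes the first ATP of the pathway, was at 2011, 1816, 266, 1508 and 2304 CPM in 6 day PyMT organoids, against 154, 222 and 302 CPM in PyMT sections (log2 fold change 2.84 ± 0.60 (SE), adjusted p = 0.0145). Pgam1, the next enzyme, was at 408, 322, 82.0, 368 and 441 CPM, against 49.4, 60.6 and 82.2 CPM (log2 fold change 2.37 ± 0.42 (SE), adjusted p = 0.0109). Eno1, the enolase that follows, was at 2337, 2193, 849, 2726 and 2392 CPM, against 503, 651 and 744 CPM (log2 fold change 1.76 ± 0.32 (SE), adjusted p = 0.0109). Of these only Eno1 showed no overlap, and day 6 replicate 3 accounted for the overlap of the others. Gapdh (log2 fold change 2.35, adjusted p = 0.0109), the triose isomerase Tpi1 (1.90, adjusted p = 0.0121), pyruvate kinase Pkm (1.93, adjusted p = 0.0109) and glucose-6-phosphate isomerase Gpi1 (1.42, adjusted p = 0.013) rose too. Over all libraries Gapdh ranged over 415 to 5227 CPM, Tpi1 over 326 to 2004 CPM, Pkm over 967 to 6412 CPM and Gpi1 over 327 to 1470.3 CPM. Pdk1, a mitochondrial kinase that inhibits pyruvate dehydrogenase, ranged over 31.0 to 285 CPM and rose in organoids (2.59, adjusted p = 0.0148).

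The enzymes that did not pass were Ldha and both aldolases. Ldha, which reduces pyruvate to lactate, was at 3346, 2998, 3551, 2716 and 3135 CPM in 6 day PyMT organoids, against 1872, 1666 and 3421 CPM in PyMT sections (log2 fold change 0.42, adjusted p = 0.18). Aldoa was at 2893, 2408, 5293, 3509.6 and 3470.4 CPM, against 1297, 1582 and 4380.1 CPM (0.54, adjusted p = 0.386), and Aldoc at 859.9, 383, 644, 1106 and 711 CPM, against 531, 404 and 624 CPM (0.54, adjusted p = 0.501). The high section value of Ldha and of Aldoa was replicate 3, and day 6 replicate 3 was above the other 4 organoid libraries in both, the reverse of its place in Pgk1 or Egln3. Markers of skeletal muscle, a tissue rich in aldolase A, summed to 3.45 CPM in that organoid library and to 2.62 to 639 CPM over the sections, where replicate 2 held the most. The bifunctional enzyme gene Pfkfb3 stood at 94.3, 145, 47.8, 115 and 173 CPM, against 45.9, 23.2 and 52.7 CPM (1.53, adjusted p = 0.0643), and its relative Pfkfb4 at 6.84, 9.70, 5.71, 4.86 and 4.49 CPM, against 6.14, 4.32 and 5.27 CPM (0.17, adjusted p = 0.815).

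This comparison leaned on few libraries. Without PyMT section replicate 1 none of the 35 passed, where 0% of all genes were called either, although the median log2 fold change was 2.02 and 30 genes had an unadjusted p under 0.05, as many as with all libraries. Without PyMT day 6 replicate 3, 30 genes were called higher, with 14% of all genes called higher. None passed with only the compared libraries in the fit (30 unadjusted) or with the dated day 6 set alone (31 unadjusted). The results of these 2 fits and the unadjusted counts stand without the share of all genes. The sections also held other tissue. Macrophage markers were lower in the organoids in 7 of 12 genes (summed CPM 99.5 to 735 in 6 day PyMT organoids, 758 to 1124 in sections), endothelial markers in 6 of 8 (6.11 to 219, against 141 to 230 CPM) and erythroid markers in the 4 tested of 5 (0.302 to 118, against 81.3 to 146 CPM). Lymphocyte markers were lower in 5 of 10 (0.171 to 3.92, against 3.80 to 11.5 CPM) and fibroblast markers in 1 of 8 (91.7 to 3527, against 2998 to 6984 CPM). Basal markers summed to 1156 to 6447 CPM in 4 of the 5 organoid libraries and to 97.0 CPM in day 6 replicate 3, against 86.9 to 315 CPM in sections, although none of the 9 was called higher and 2 were called lower. Hba-a2 had no count in either, and Hbb-bs, Hbb-bt and Hba-a1 had none in the undated organoids. The part of this in the result was not tested, and in bulk RNA fewer cells of a type and less RNA per cell cannot be told apart.

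**Figure D2:**
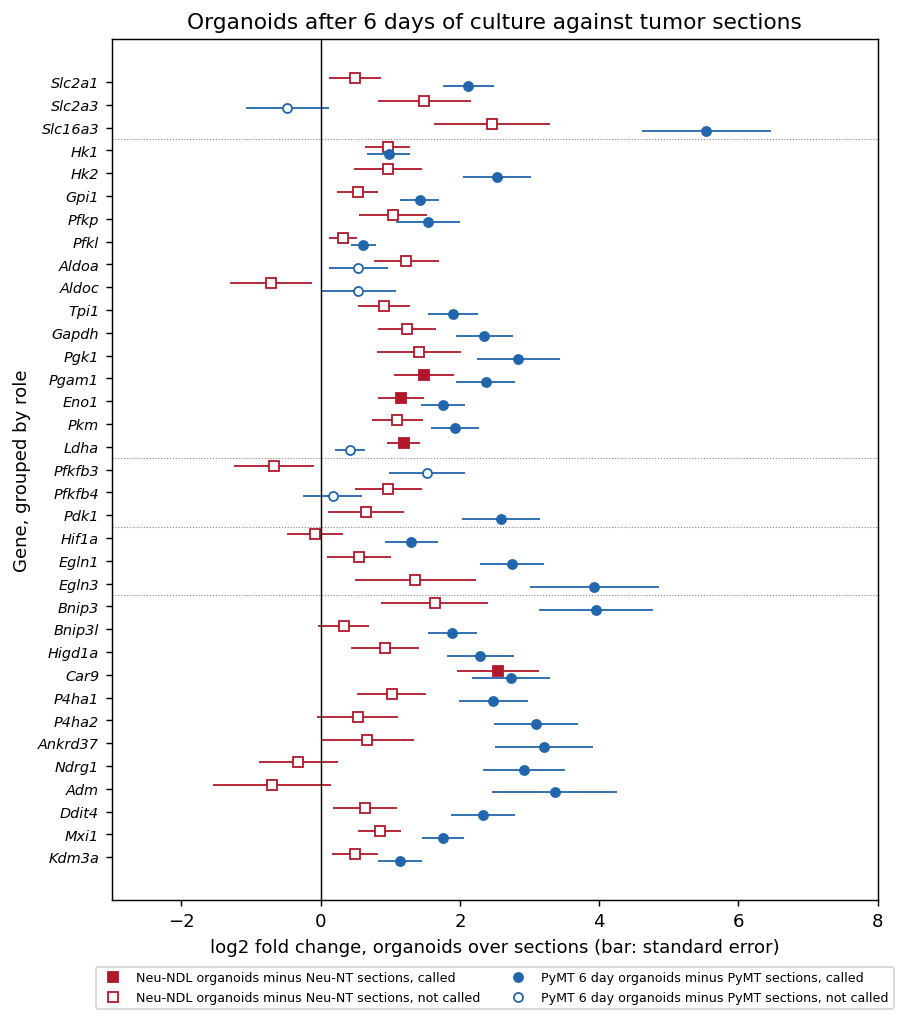
Log2 fold change of each gene, organoids over sections, for the Neu pair (squares) and the PyMT pair (circles); bars are standard errors and filled symbols passed an adjusted p under 0.05. In the PyMT pair 29 of 35 genes are filled and right of 0, with Slc16a3 at 5.54; in the Neu pair 4 are filled.

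Day 0 organoids had been prepared but not cultured. Against PyMT sections, 1 of the 35 genes was called in PyMT day 0 organoids, with 0.444% of all genes called (0.428% higher, 0.016% lower), and the median log2 fold change was 0.58. That gene was Ddit4, at 478, 631 and 727 CPM at day 0, against 81.0, 93.3 and 187 CPM in sections (log2 fold change 2.34 ± 0.48 (SE), adjusted p = 0.0446). The groups were far apart, but the call was lost when PyMT section replicate 1 or 2, or any day 0 library, was left out. Adm was at 54.0, 46.1 and 30.1 CPM at day 0, against 3.63, 2.96 and 13.7 CPM in sections, with no overlap, and did not pass (log2 fold change 2.68, adjusted p = 0.437). Slc2a1 was at 259.9, 362 and 225 CPM at day 0, against 84.3, 89.3 and 124 CPM, likewise without overlap or a call (1.51, adjusted p = 0.151). Fibroblast markers summed to 862 to 1297 CPM at day 0, against 2998 to 6984 CPM in sections. Erythroid markers summed to 25.3 to 38.3, against 81.3 to 146 CPM, and endothelial markers to 133 to 279, against 141 to 230 CPM. Preparation and cell content cannot be told apart here, and the part of these lists was not tested.

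After 6 days of culture most members stood higher than at day 0, but none passed with the 3 day 6 libraries as titled. No gene of the 35 was called between day 6 and day 0 by edgeR, with 0.626% of all genes called (0.166% higher, 0.46% lower). Of the 35, 25 had an unadjusted p under 0.05 by edgeR, and DESeq2 called 9 higher. These 2 counts stand without the share of all genes, so they do not set the 35 apart. The median log2 fold change was 1.13, against 0.04 for all genes, and 33 of 35 were above 0. The largest was Slc16a3, at 284, 371 and 13.3 CPM at day 6 and 17.3, 22.8 and 6.11 CPM at day 0 (log2 fold change 3.86, adjusted p = 0.0635). Bnip3 was at 419, 380.1 and 34.3 CPM at day 6 and 92.9, 49.4 and 17.7 CPM at day 0 (2.38, adjusted p = 0.164), and Egln3 at 2285, 1940.4 and 136 CPM at day 6 and 467, 339 and 138 CPM at day 0 (2.21, adjusted p = 0.249). In all 3 genes day 6 replicates 1 and 2 were above every day 0 library, while replicate 3 was within the day 0 range of Slc16a3 and Bnip3 and below that of Egln3.

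Taken by replicate number, replicates 1 and 2 differed between the days more than replicate 3. The log2 ratio of CPM + 1, day 6 over day 0, was above 0 for 33 genes in replicate 1 (median 1.19), for 34 in replicate 2 (median 1.39) and for 22 in replicate 3 (median 0.12). Without day 6 replicate 3 edgeR called 22 of the 35 higher at day 6, and without it and Neu-NT section replicate 3 it called 29. Of all genes, 5.98% and 9.46% were called higher in these fits, and the libraries left out were singled out in part for their low values of these 35 genes. With the undated set averaged in, 15 were called higher, against 4.1% of all genes. A fit of these 6 libraries with a replicate block called none, a count given without the share of all genes. Ddit4 was the exception in direction, at 418, 833 and 225 CPM at day 6 and 478, 631 and 727 CPM at day 0 (-0.31, adjusted p = 0.807), as was the scarce Slc2a3 (-1.12, adjusted p = 0.473). The erythroid markers summed to 0.546 to 118 CPM at day 6, with the high value in replicate 3, and to 25.3 to 38.3 CPM at day 0; their part in the result was not tested.

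**Figure D3:**
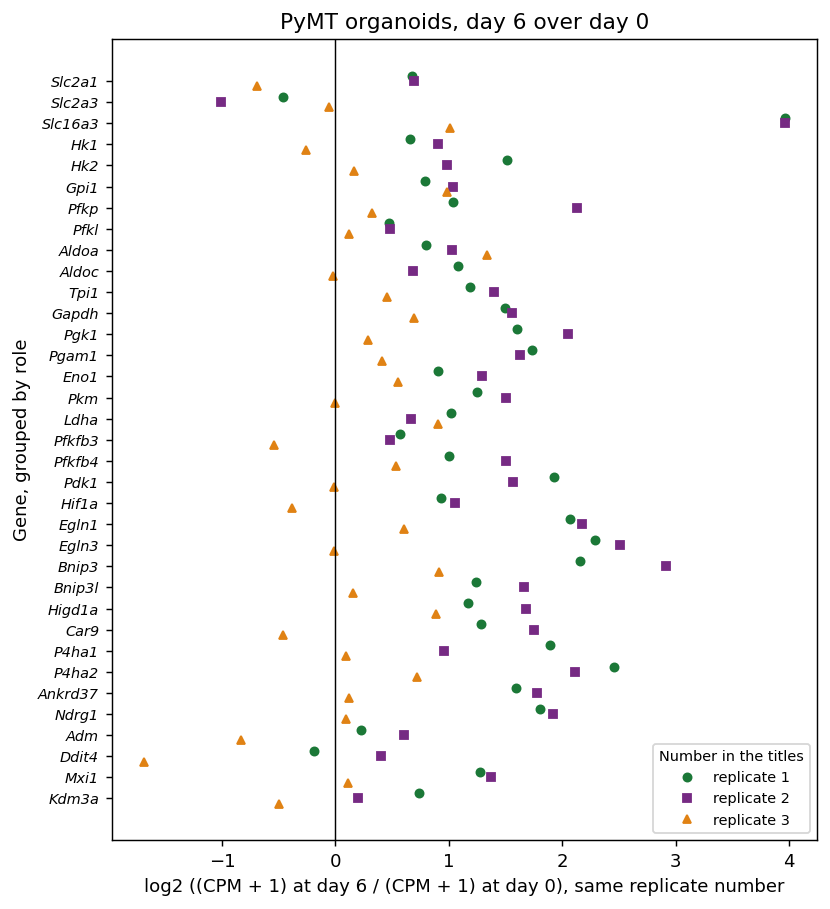
Log2 ratio of CPM + 1 at day 6 over day 0 for each gene and each replicate number in the titles (circles, squares and triangles, drawn slightly apart in height). Replicates 1 and 2 lie mostly right of 0, with Slc16a3 farthest right, and replicate 3 is spread around 0.

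Against normal organoids, the PyMT sections were low and the cultured tumor organoids were not told apart. In PyMT sections 22 genes were lower than in WT organoids and none higher, with 12.5% of all genes called in either direction (6.45% higher, 6.05% lower). The median was -1.71, against 0.03 for all genes, and Pfkfb4 alone had a log2 fold change above 0. The calls fell on 10 of 12 hypoxia targets, 2 of 3 oxygen sensing genes, 7 of 14 enzymes, 2 of 3 transporters and 1 of 3 switches. Slc16a3 stood at 4.16, 3.57 and 9.62 CPM in PyMT sections, against 103, 124 and 172 CPM in WT organoids (log2 fold change -4.52 ± 0.91 (SE), adjusted p = 0.00973). Bnip3 stood at 17.9, 19.9 and 32.1 CPM, against 224, 356 and 530.4 CPM (log2 fold change -3.99 ± 0.84 (SE), adjusted p = 0.0121), and Egln3 at 119, 81.0 and 144 CPM, against 837, 1164 and 1479 CPM (log2 fold change -3.34 ± 0.93 (SE), adjusted p = 0.0318). Pgk1 stood at 154, 222 and 302 CPM, against 1299, 1585 and 2006 CPM (log2 fold change -2.85 ± 0.63 (SE), adjusted p = 0.0141). The lowest WT library was above the highest section in 31 of the 35 genes. That count was not taken over all genes, so it has no background to be read against. The 22 calls fell to 2 without PyMT section replicate 1, to 8 without WT replicate 3 and to 14 without WT replicate 2. These leave-out counts stand without the share of all genes called, so they do not compare the 35 with other genes. Erythroid markers, higher in the 4 tested of 5, summed to 81.3 to 146 CPM in the sections and to 0.512 to 0.594 CPM in WT organoids, and macrophage markers, higher in 7 of 12, to 758 to 1124 and 176 to 282 CPM. Lymphocyte markers, higher in 4 of 10, summed to 3.80 to 11.5 CPM in sections and 0.387 to 0.707 CPM in WT organoids. Basal markers, lower in 5 of 9, summed to 86.9 to 315 CPM in sections and 2638 to 3332 CPM in WT organoids. Fibroblast markers summed to 2998 to 6984 and 1097 to 1741 CPM, and endothelial markers to 141 to 230 and 16.3 to 67.8 CPM, with none of 8 called in either list. Of the erythroid list, Hbb-bs, Hbb-bt, Hba-a1 and Hba-a2 had no count in WT organoids. The part of these markers in the result was not tested. Tumor and normal, and section and culture, cannot be told apart here.

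In the 6 day PyMT organoids none of the 35 was called against WT organoids (2 at an unadjusted p under 0.05, 1 lower by DESeq2), with 3.89% of all genes called (1.4% higher, 2.49% lower). The median was 0.30, and 4 genes were called higher without the pair of libraries that stood apart, where 7.48% of all genes were. Slc16a3 stood at 284, 371, 13.3, 311 and 343 CPM in these organoids, against 103, 124 and 172 CPM (1.02, adjusted p = 0.456), and 4 of the 5 PyMT libraries were above every WT library. Car9 stood at 176, 139, 24.9, 179 and 273 CPM, against 64.8, 70.7 and 111 CPM (0.96, adjusted p = 0.304), with the same order. The log2 fold change was -0.02 ± 0.67 (SE) for Bnip3 and -0.02 ± 0.53 for Pgk1, so that a 2-fold difference in either direction lies within 2 standard errors. In Neu-NDL organoids none was called against WT organoids (0 at an unadjusted p under 0.05 by edgeR, 1 by DESeq2 and none by its adjusted p), with 4.52% of all genes called (2.47% higher, 2.06% lower) and a median of 0.02. There Bnip3 stood at 148, 199 and 232 CPM, against 224, 356 and 530.4 CPM in WT organoids (-0.94, adjusted p = 0.528), and Egln3 at 1416, 1682 and 1649 CPM, against 837, 1164 and 1479 CPM (0.45, adjusted p = 0.819). The unadjusted and DESeq2 counts stand without the share of all genes. Basal markers were lower than in WT organoids (2638 to 3332 CPM) in 6 of 9 genes in PyMT organoids (97.0 to 6447 CPM). In Neu-NDL organoids 5 of 9 were lower (124 to 569 CPM). Macrophage markers were higher in 4 of 12 genes in Neu-NDL organoids (477 to 2140, against 176 to 282 CPM) and in none in PyMT. The part of these lists was not tested.

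**Figure D4:**
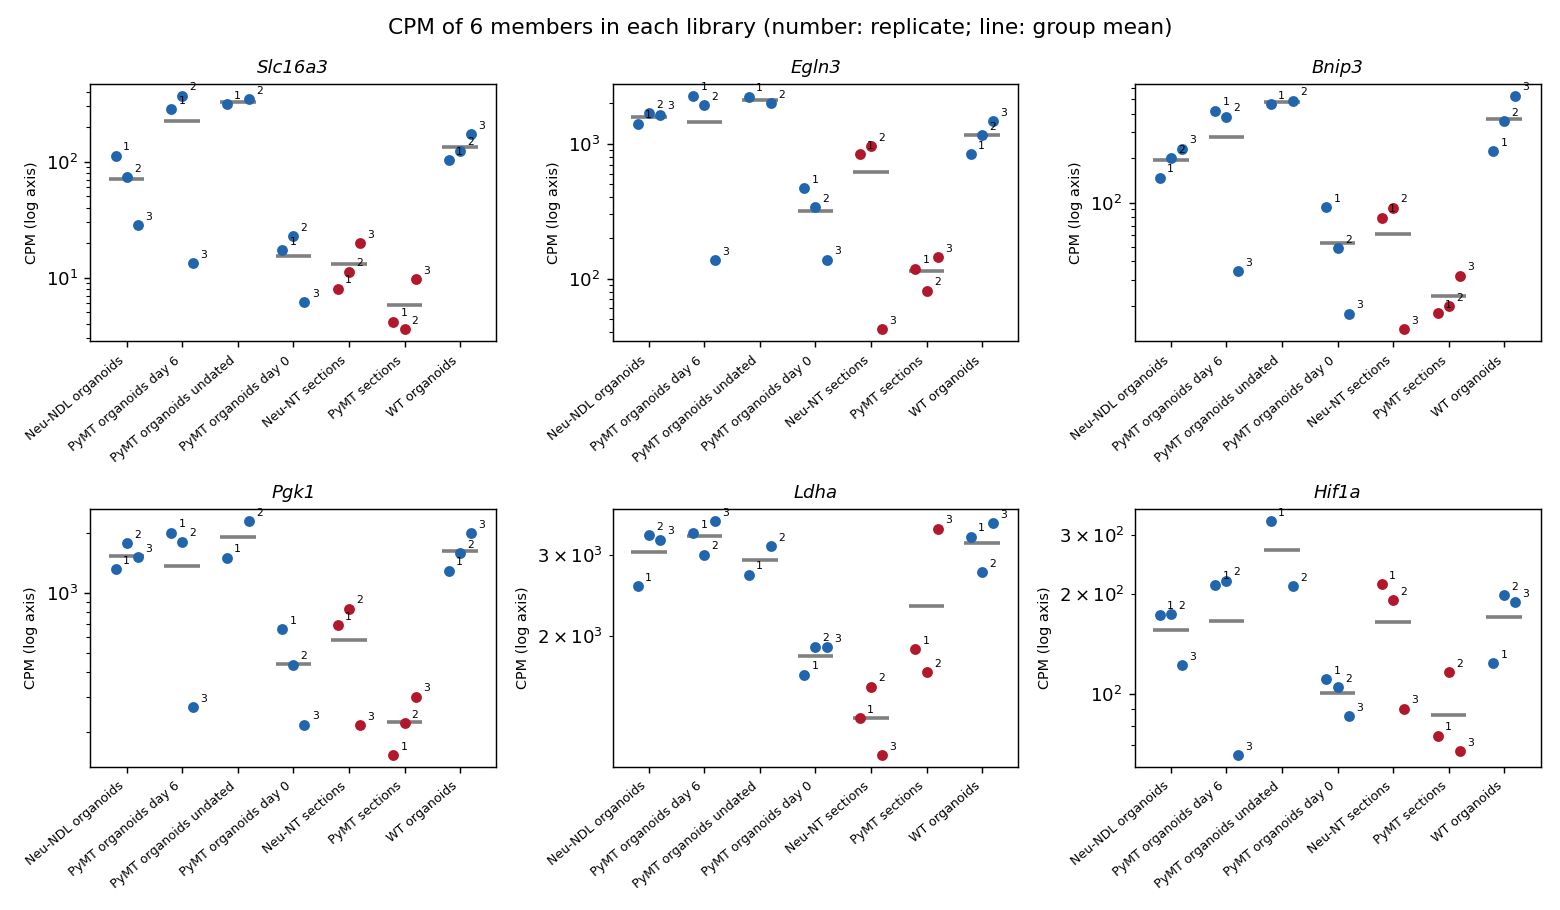
CPM of 6 genes in every library, on log axes (blue, organoids; red, sections; grey line, group mean; digit, replicate). Slc16a3, Egln3, Bnip3 and Pgk1 have their lowest group mean in PyMT sections; Ldha and Hif1a span a narrower range.

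The Neu-NT sections differed from WT organoids in fewer of these genes. Of the 35, 5 were lower and none higher than in WT organoids, where 19% of all genes were called in either direction, 10.5% higher and 8.47% lower. As a share, the 5 of 35 lay below the background in either direction and above that for lower calls. The median was -0.79. Slc16a3 stood at 8.01, 11.3 and 19.7 CPM in Neu-NT sections, against 103, 124 and 172 CPM in WT organoids (log2 fold change -3.36 ± 0.86 (SE), adjusted p = 0.014). Car9 stood at 11.2, 22.7 and 7.25 CPM, against 64.8, 70.7 and 111 CPM (log2 fold change -2.58 ± 0.59 (SE), adjusted p = 0.00804), and Bnip3 at 78.9, 92.5 and 13.9 CPM, against 224, 356 and 530.4 CPM (log2 fold change -2.58 ± 0.79 (SE), adjusted p = 0.0332). Ldha stood at 1326, 1553 and 1103 CPM, against 3286, 2746 and 3518 CPM (log2 fold change -1.26 ± 0.24 (SE), adjusted p = 0.00297), and Eno1 at 743, 704 and 961 CPM, against 1609.6, 1685 and 1929 CPM (log2 fold change -1.12 ± 0.33 (SE), adjusted p = 0.0277). No Neu-NT library overlapped WT in these 5 genes. The count was 2 without Neu-NT replicate 1, 3 without WT replicate 2 or 3, and 12 lower and 2 higher without the pair of libraries that stood apart, where 14.3% of all genes were lower and 14.7% higher. The counts of 2 and 3 stand without the share of all genes. In Neu-NT sections, against WT organoids, basal markers (6 of 9 lower) summed to 74.6 to 1843, against 2638 to 3332 CPM, and erythroid markers (3 of 5 higher) to 29.6 to 118, against 0.512 to 0.594 CPM. Macrophage markers (10 of 12 higher) summed to 732 to 2249, against 176 to 282 CPM, lymphocyte markers (5 of 10 higher) to 2.95 to 26.6, against 0.387 to 0.707 CPM, and endothelial markers (none of 8 called) to 111 to 191, against 16.3 to 67.8 CPM. The part of these lists in the 5 calls was not tested.

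Neu-NDL organoids were higher than Neu-NT sections in 4 genes and lower in none, with 7.97% of all genes called (4.06% higher, 3.91% lower) and a median of 0.92. Car9 stood at 97.4, 99.8 and 44.0 CPM in Neu-NDL organoids, against 11.2, 22.7 and 7.25 CPM in Neu-NT sections (log2 fold change 2.55 ± 0.59 (SE), adjusted p = 0.0187). Pgam1 stood at 297, 379.9 and 452 CPM, against 147, 162 and 93.5 CPM (log2 fold change 1.49 ± 0.43 (SE), adjusted p = 0.0446), and Eno1 at 1707, 2146 and 1514 CPM, against 743, 704 and 961 CPM (log2 fold change 1.16 ± 0.33 (SE), adjusted p = 0.0433). Ldha stood at 2567, 3307 and 3232 CPM, against 1326, 1553 and 1103 CPM (log2 fold change 1.19 ± 0.24 (SE), adjusted p = 0.0101). In PyMT the same difference did not pass, and the 2 differences were not told apart (0.77, adjusted p = 0.148). None of these 4 overlapped. The count was 1 without Neu-NDL replicate 2 or Neu-NT replicate 1, and 2 without Neu-NDL replicate 1 or 3 or Neu-NT replicate 2. It was 2 with a replicate block. In Neu-NDL organoids, against Neu-NT sections, erythroid markers (3 of 5 lower) summed to 0.626 to 1.35, against 29.6 to 118 CPM, with Hbb-bs, Hbb-bt and Hba-a2 without a count in the organoids. Endothelial markers (none of 8 called) summed to 7.89 to 63.7, against 111 to 191 CPM, and lymphocyte markers (5 of 10 lower) to 1.996 to 3.29, against 2.95 to 26.6 CPM. The part of these lists in the 4 calls was not tested.

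Between the tumor sections, 3 of the 35 genes (8.57%) were called, a share near the background: Neu-NT had more Adm and Egln1 and less Ldha than PyMT, with 9.7% of all genes called (5.13% higher, 4.57% lower) and a median of 1.00. Adm stood at 93.7, 140.1 and 5.80 CPM in Neu-NT sections, against 3.63, 2.96 and 13.7 CPM in PyMT sections (log2 fold change 3.56 ± 0.94 (SE), adjusted p = 0.0267), and Neu-NT replicate 3 lay within the PyMT range. Egln1 stood at 125, 165 and 70.3 CPM, against 28.3, 31.9 and 45.9 CPM (log2 fold change 1.76 ± 0.47 (SE), adjusted p = 0.028), and Ldha at 1326, 1553 and 1103 CPM, against 1872, 1666 and 3421 CPM (log2 fold change -0.81 ± 0.24 (SE), adjusted p = 0.0434), both without overlap. Without Neu-NT replicate 3, 15 of the 35 were called, with 16.6% of all genes. Without it and PyMT day 6 replicate 3, 22 were called (21 higher, 1 lower), with 23.2% of all genes. Both libraries were singled out in part for their low values of these 35 genes. None was called without PyMT section replicate 1 or Neu-NT replicate 1 or 2, and 1 without PyMT section replicate 2 or 3. The counts of none and of 1 stand without the share of all genes. Egln3 shows the spread within Neu-NT, at 841, 964 and 41.9 CPM there, against 119, 81.0 and 144 CPM in PyMT sections (2.42, adjusted p = 0.0968).

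Between the cultured tumor organoids, 2 of the 35 genes (5.71%) were called, a share near the background. Slc2a3 was higher and Ndrg1 lower in Neu-NDL than in 6 day PyMT organoids, with 7.12% of all genes called (4.7% higher, 2.42% lower) and a median of -0.15. Slc2a3 stood at 11.0, 2.25 and 2.26 CPM in Neu-NDL organoids, against 0.326, 0.956, 0.815, 0.973 and 1.03 CPM in PyMT organoids (log2 fold change 2.61 ± 0.59 (SE), adjusted p = 0.0201). Ndrg1 stood at 152, 235 and 268 CPM, against 924, 1041, 144, 808 and 1216 CPM (log2 fold change -1.95 ± 0.56 (SE), adjusted p = 0.0451). Its low PyMT library was again day 6 replicate 3. Without that library, singled out in part for its low values of these 35 genes, 8 genes were called, with 16.6% of all genes. None was called without undated replicate 1 or 2 or Neu-NDL replicate 1, and 1 without PyMT day 6 replicate 1 or 2 or Neu-NDL replicate 2 or 3. The count was 1 with a replicate block. The counts of none and of 1 stand without the share of all genes. Macrophage markers (6 of 12 higher) summed to 2028, 2140 and 477 CPM in Neu-NDL organoids, against 99.5 to 276 CPM in 4 of the 5 PyMT libraries and 735 CPM in day 6 replicate 3. Basal markers (none of 9 called) summed to 124 to 569 CPM in Neu-NDL organoids, against 1156 to 6447 CPM in the same 4 and 97.0 CPM in day 6 replicate 3. The part of these lists in the calls was not tested.

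The organoid over section difference itself was compared between the models. It was lower in Neu than in PyMT for Ndrg1 (difference of log2 fold changes -3.24 ± 0.80 (SE), adjusted p = 0.0296) and Egln1 (-2.20 ± 0.63, adjusted p = 0.0493), with 6.12% of all genes called (2.9% higher, 3.22% lower) and a median of -1.36 over the 35. The 2 of 35 (5.71%) are a share near the background. Ndrg1 had a log2 fold change of -0.32 between Neu-NDL organoids and Neu-NT sections, and of 2.92 between PyMT organoids and sections. Its Neu values were 152, 235 and 268 CPM in organoids, against 179, 248 and 391 CPM in sections, with no separation. Egln1 stood at 156, 208 and 164 CPM in Neu-NDL organoids, against 125, 165 and 70.3 CPM in Neu-NT sections, and had a log2 fold change of 0.55 in the Neu pair and 2.75 in the PyMT pair. Adm had -0.70 and 3.36, and the difference did not pass (-4.06, adjusted p = 0.0559). Without PyMT day 6 replicate 3, 17 genes were called, with 18.2% of all genes (7.57% lower). Without it and Neu-NT replicate 3, 27 were called, 26 of them lower, with 23.2% of all genes (9.88% lower). Both libraries were singled out in part for their low values of these 35 genes. None was called without PyMT section replicate 1 or 2, undated replicate 2, or Neu-NDL replicate 1 or 2. The count was 1 without PyMT day 6 replicate 1 or 2, undated replicate 1, Neu-NDL replicate 3 or Neu-NT replicate 1 or 2, and 7 without Neu-NT replicate 3, where 8.13% of all genes were called. The counts of none and of 1 stand without the share of all genes.

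Among paralogs, levels per kilobase of exon showed which member dominated. Slc2a1 was far above Slc2a3 in each library, with Slc2a3 at most 0.022 of Slc2a1 per kilobase, in a Neu-NDL organoid library. Hk1, the widely expressed hexokinase, exceeded the inducible Hk2, which was at 0.165 to 0.491 of Hk1 per kilobase in PyMT day 6 organoids and at 0.0819 to 0.145 in PyMT sections. Hk2 stood at 189, 206, 38.5, 206 and 168 CPM in 6 day PyMT organoids, against 24.7, 21.8 and 38.9 CPM in sections (log2 fold change 2.53 ± 0.49 (SE), adjusted p = 0.0123), and Hk1 at 844, 600.5, 333, 957 and 602 CPM, against 273, 379.5 and 384 CPM (log2 fold change 0.98 ± 0.31 (SE), adjusted p = 0.042). Both rose, and no test compared the genes. Pfkl, the liver type phosphofructokinase, stood at 1098, 986, 722, 889.8 and 817 CPM, against 499.6, 529.6 and 726 CPM (log2 fold change 0.61 ± 0.18 (SE), adjusted p = 0.0363). The platelet type Pfkp stood at 734, 603, 283, 758 and 711 CPM, against 115, 199.7 and 337 CPM (log2 fold change 1.54 ± 0.46 (SE), adjusted p = 0.0377). Per kilobase Pfkl was 2.31 to 2.36 times Pfkp in undated PyMT organoids, 3.003 to 5.12 times in PyMT day 6 organoids and 4.33 to 8.75 times in PyMT sections, so that the day 6 set and the sections overlapped.

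Per kilobase, Bnip3 exceeded Bnip3l in every cultured organoid library except PyMT day 6 replicate 3. In every section the order was the reverse. Bnip3l was at 0.683 to 0.861 times Bnip3 per kilobase in Neu-NDL organoids, 0.46 to 0.513 times in undated PyMT organoids and 0.525 to 1.81 times in PyMT day 6 organoids. It was at 1.50 to 6.13 times Bnip3 in Neu-NT sections and 1.81 to 2.91 times in PyMT sections, and at 0.376 to 0.579 times in WT organoids. In PyMT day 0 organoids, which were not cultured, Bnip3l was at 0.9975 to 3.15 times Bnip3. Egln3 was at 3.43 to 5.66 times Egln1 per kilobase in PyMT sections, against 8.51 to 9.44 times in WT organoids, and was below Egln1 in Neu-NT section replicate 3 alone, at 0.804 times. P4ha2 stayed below P4ha1 in each library, and Pfkfb4 below Pfkfb3. Aldoc was below Aldoa per kilobase in the mean of every group, Neu-NT sections included (485 against 637 CPM per kilobase). Only there did a library pass a ratio of 1. The ratio ran from 0.191 to 1.05, with Aldoc at 2454, 2101 and 195 CPM and Aldoa at 2085, 2567 and 908 CPM. These ratios are descriptions without a test, and the exon lengths are of all GENCODE M21 exons of a gene.

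Other genes of the same and neighboring pathways, from lists written down by name, were counted in the same fits. Of 36 other hypoxia targets, 15 rose and none fell in 6 day PyMT organoids relative to PyMT sections (median 1.15). Of all genes, 7.69% were called higher there and 8.3% lower. The largest were the disulfide oxidase Ero1l (4.44 ± 0.90 (SE); 1549 ± 989 CPM in organoids and 70.3 ± 19.1 CPM in sections, mean ± SD), the mitochondrial adenylate kinase Ak4 (3.86 ± 0.76) and the angiogenic factor Vegfa (3.33 ± 0.68). In PyMT sections against WT organoids 11 of the 36 were lower and 2 higher, led by the mitochondrial protein gene Ndufa4l2 (-5.62 ± 0.95). There 6.05% of all genes were lower and 6.45% higher. In Neu-NT sections against WT organoids 11 were lower, with 8.47% of all genes lower. In Neu-NDL organoids 4 were higher than in Neu-NT sections, with 4.06% of all genes higher. None was called between day 6 and day 0, where only 0.626% of all genes were, so this count does not set the list apart.

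Of 20 other glycolysis genes (18 tested), 5 rose and 1 fell in 6 day PyMT organoids relative to PyMT sections. The shares of all genes, 7.69% higher and 8.3% lower, also apply to the next 4 lists. Those that rose included the neuronal enolase Eno2 (3.58 ± 0.99) and the lactate transporter Slc16a1 (1.78 ± 0.48). Of 7 pentose phosphate genes, 3 were higher there and none lower, and of 7 gluconeogenesis genes (6 tested) 1 was higher and 1 lower. Of 21 genes of pyruvate oxidation and the TCA cycle, none was called there and the median was 0.03, with 16% of all genes called. The 35 genes and these lists were chosen with earlier results of these data known. No test compared this list with the 29 of 35 called among glycolysis and hypoxia genes. Of 16 HIF regulators, 2 were higher, namely Hif3a (5.18 ± 1.29; 7.20 ± 6.94 CPM in organoids and 0.154 ± 0.0901 CPM in sections) and Vhl, which directs HIF to degradation (0.74 ± 0.24). Arnt2, a partner of HIF alpha subunits, was higher than in WT organoids in all 4 tumor groups compared. Its log2 fold change was 2.56 ± 0.51 (SE) in Neu-NDL organoids, 1.87 ± 0.48 in 6 day PyMT organoids, 6.82 ± 0.61 in Neu-NT sections and 2.34 ± 0.51 in PyMT sections. It averaged 73.0 ± 19.4 CPM in Neu-NT sections, against 0.639 ± 0.302 CPM in WT organoids. Fbp1, the gluconeogenic enzyme that opposes phosphofructokinase, was lower than in WT organoids in all 4 tumor groups compared. It averaged 2.03 ± 0.676 CPM in Neu-NDL organoids, 4.23 ± 2.01 CPM in 6 day PyMT organoids, 0.207 ± 0.0642 CPM in Neu-NT sections and 2.22 ± 0.494 CPM in PyMT sections, against 40.6 ± 3.16 CPM in WT organoids. Its log2 fold changes were -4.32 ± 0.49, -3.26 ± 0.40, -7.59 ± 0.60 and -4.18 ± 0.49 in that order of groups, and all 4 comparisons share the WT libraries.

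Some of these genes have close copies in the genome, which can share reads. Of the 35, 11 had another annotated gene matching at 95% identity or more over 200 bases or more. The copies of Eno1 (3 genes) held 32.5% as many CPM as Eno1 itself, and those of Gapdh (78 genes) 11.5%. The copies of the other 9 held at most 1.02%. Copies for which no counts were given, such as the only copy of Tpi1, entered these shares as 0, so their level is not known. Reads that aligned to more than 1 place were left out of the gene counts, at 14.4 to 22.1 per 100 reads counted on genes. How many of those belong to these genes is not known, so the shares of the copies do not bound the uncertainty. Several genes overlap a gene on the other strand, such as Ankrd37 with Ufsp2 and Lrp2bp, Aldoa with Fam57b and Pfkp with Pitrm1. The strand setting of the counting is not given in the sources used here, and without strand, reads from overlapping genes cannot be told apart.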

How the data were processed

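RNA was extracted with TRIzol and made into polyA+ TruSeq libraries, per the labels' protocols. The authors deposited raw counts per gene for each of the 20 libraries; the submitters' processing notes name CASAVA, FastQC, STAR, HTSeq, DESeq2 and mm10, while the annotation release, strand setting and counting mode are not given in the sources used here. Rows that name no gene were left out of library sizes: reads without a feature came to 5.6 to 12.33% and ambiguous reads to 4.68 to 7.39%. GENCODE M21 matched 44671 of 45318 IDs. No replicate pair was a duplicate (chi-square per gene of 45.2 or more).

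Counts were fitted with edgeR 4.0.16 (R 4.3.3; TMM scaling, filterByExpr, robust quasi-likelihood test, 1 coefficient per group, all 20 libraries, 13 residual degrees of freedom), with Benjamini-Hochberg adjustment over 18698 genes and a call at an adjusted p under 0.05. Standard errors were taken from each log2 fold change and its F statistic (change over root F). The code was tested on simulated data. Alternatives were DESeq2 1.42.0, RLE size factors, no filter, fits of only the compared libraries, a replicate block, and libraries left out or summed. Same-numbered libraries were taken to deviate together where all 3 pairs had r above 0.1 over genes. Only PyMT day 6 and day 0 met this (r of 0.287 to 0.428), a link read from the data and not given by the labels. Some other groups had r above 0 in all pairs, such as PyMT sections and Neu-NDL organoids (0.0557 to 0.246).

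The 35 genes and the other lists were chosen with earlier results of these data known. Values in every library were given for the 4 largest called changes of a comparison that had 10 CPM or more in whichever group was higher, and for paralog pairs; genes shown beyond these were chosen after their values were seen. From other lists at most the 3 largest called changes per comparison were named.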

Additional observations from a re-analysis of the deposited data

Results flagged for a closer look

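Among the 5 PyMT organoid libraries of 6 days, 10 of the 35 genes had a lowest library set far from the rest, with a gap to its nearest neighbor of more than 0.71 of the whole range (Dixon's 95% value for 5 samples). The lowest library was day 6 replicate 3 in all 10. The gap as a share of the range was 0.857 for Pdk1, 0.84 for Egln3, 0.823 for Egln1, 0.779 for Kdm3a and 0.772 for Hk2. It was 0.767 for Tpi1, 0.766 for Bnip3l, 0.761 for Bnip3, 0.757 for Slc16a3 and 0.716 for Eno1. Chance sets off this rule in about 1 of 20 groups, and the 10 genes share 1 library.

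The organoid over section difference was tested between the Neu and the PyMT models. By edgeR it was lower in Neu for Ndrg1 (difference of log2 fold changes -3.24) and for Egln1 (-2.20), where the Neu organoids and sections are of different genotypes.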

How the results depend on the processing

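No gene called in a comparison changed direction under any alternative run. Counts below are of the 35 genes called, and the cause of a change was not tested unless fewer libraries or genes were fitted. They stand without the share of all genes called in each fit, so they do not compare the 35 with other genes. DESeq2 called 1 in PyMT 6 day organoids against WT organoids (edgeR 0), 8 in Neu-NT sections against WT (edgeR 5), 9 at day 6 against day 0 (0), 2 at day 0 against PyMT sections (1), 8 in Neu-NDL organoids against Neu-NT sections (4), 12 between Neu-NT and PyMT sections (3), 5 between Neu-NDL and PyMT organoids (2) and 9 for the difference of differences (2). RLE size factors gave 1 for the last. With no filter on low counts the counts were 0 for day 0 against sections, 0 between Neu-NT and PyMT sections, 1 between the tumor organoids and 0 for the difference of differences. With only the compared libraries they were 8 for Neu-NT sections against WT, 2 for day 0 against sections and 0 in the PyMT 6 day, Neu-NDL against Neu-NT, section, tumor organoid and difference of differences comparisons.

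With a replicate block, counts were 2 for Neu-NDL against Neu-NT, 1 between the tumor organoids and 1 for the difference of differences. For PyMT day 6 against day 0 the count stayed at 0, and for PyMT 6 day organoids against sections it was 26. Without the pair of libraries that stood apart, counts were 4, 14, 29, 4, 10, 22, 9 and 27 for PyMT organoids against WT, Neu-NT against WT, day 6 against day 0, day 0 against sections, Neu-NDL against Neu-NT, Neu-NT against PyMT sections, the tumor organoids and the difference of differences. The dated day 6 set alone gave 0 against PyMT sections, in the tumor organoid comparison and for the difference of differences; the undated set alone gave 0 between the tumor organoids. Averaging dated and undated sets gave 15 at day 6 against day 0. Summing Neu-NT replicates 1 and 2 gave 2 against WT, 2 for Neu-NDL against Neu-NT, 0 between the sections and 1 for the difference of differences.

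Leaving out 1 library gave 0 to 30 for PyMT 6 day organoids against sections, 2 to 17 for PyMT sections against WT, 2 to 6 for Neu-NT against WT, 0 to 0 for PyMT and for Neu-NDL organoids against WT, 0 to 22 for day 6 against day 0, 0 to 1 for day 0 against sections, 1 to 4 for Neu-NDL against Neu-NT, 0 to 15 between the sections, 0 to 8 between the tumor organoids and 0 to 17 for the difference of differences. Each call of a gene in a comparison was checked once per library left out, so 1 gene counts many times. Of these checks, 188 fell short of the threshold and 298 passed. Levels near 1 CPM, as for Slc2a3, rest on few reads.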
